A study of Mus musculus with 8 samples.

Results

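Mmp20 and Klk4, the genes of the principal proteases of forming enamel, were the 2 rows of the 54532 genes in the deposited read-count table that carry these gene names. Both were measured in enamel organs of first molars from wild-type C57BL/6 mice at postnatal day 5 (P5), when most of the organ is at the secretory stage, and at postnatal day 12 (P12), when it is at the maturation stage. Each age had 4 libraries, whose label numbers are 1, 3, 4 and 5 for P5 and 1 to 4 for P12. The animals carried no transgene or deletion and received no treatment, and per the study's methods each library was made from the pooled enamel organs of 5 pups. The comparison of the ages asked how the transcripts of the 2 enzymes are arranged in time, and the ratio of Klk4 to Mmp20 within a library gave a measure that does not depend on scaling between libraries.

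Enamel is laid down by ameloblasts as a protein matrix, mainly amelogenin, ameloblastin and enamelin, in which thin mineral ribbons form. MMP20 (enamelysin) is a secreted matrix metalloproteinase that cleaves these proteins while they are being secreted. KLK4 (kallikrein-related peptidase 4) is a secreted serine protease that degrades the remaining matrix during maturation, so that the crystals can thicken and the enamel hardens. Loss of either gene in mice or humans gives soft or malformed enamel (amelogenesis imperfecta).

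The table's coordinates matched the GRCm38 build. Mmp20 (ENSMUSG00000018620) lay on the plus strand at chr9:7628231-7674979, with 10 exons and a length of 3287 bases in the table. Klk4 (ENSMUSG00000006948) lay on the plus strand at chr7:43881160-43885804, with 6 exons and a length of 1249 bases. No exonic base of either gene was shared with another annotated gene. The antisense gene AV064505, at chr9:7669429-7695631 on the minus strand, overlapped the body of Mmp20 and had 183 to 269 counts at P5 and 42 to 63 at P12, far fewer than Mmp20. It shared no exonic base with Mmp20, and since the strand setting of the counting is not given, reads of the pair in introns or unannotated parts cannot be told apart. No annotated gene overlapped Klk4.

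The 250 bases before the RefSeq start of each gene (GRCm38.p6) are shown because the members changed in opposite directions and these windows differ in composition and in the motifs they hold. Mmp20's window spans chr9:7627981-7628230 and Klk4's spans chr7:43880910-43881159, both on the plus strand and written 5′ to 3′, with matches on either strand in capitals. The motifs searched were TATAA and the longer TATAAA of the TATA box, the homeodomain core TAATTA and TGANTCA. The last is a loose form of the AP-1 motif, with any base (N) allowed at its centre. The RUNX core TGTGGT and the CCAAT box were also searched, and neither was found.
Mmp20: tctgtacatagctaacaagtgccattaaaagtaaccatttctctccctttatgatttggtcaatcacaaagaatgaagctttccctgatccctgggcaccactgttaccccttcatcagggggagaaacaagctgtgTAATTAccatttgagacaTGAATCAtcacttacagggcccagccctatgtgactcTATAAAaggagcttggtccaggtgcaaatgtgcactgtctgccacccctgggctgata
Klk4: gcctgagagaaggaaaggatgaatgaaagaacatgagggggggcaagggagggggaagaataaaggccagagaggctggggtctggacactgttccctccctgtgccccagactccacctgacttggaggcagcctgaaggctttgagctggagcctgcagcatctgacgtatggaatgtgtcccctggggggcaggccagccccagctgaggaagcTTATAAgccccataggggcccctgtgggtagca

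Mmp20's window had a GC content of 45.6%, and 26.5% of 27025 mouse promoter windows of the same length had less. Klk4's window had a GC content of 59.6%, and 71.5% of the windows had less. The TATAA letters, those of the TATA box, began 58 bases before the start in Mmp20 and lay at 33 and 32 bases before it on the opposite strands in Klk4, where they overlap, and 23.5% of all windows held them. The longer TATAAA, which contains the first motif, occurred in the window of Mmp20 and in 13.0% of windows. Mmp20 also held TAATTA, a core of many homeodomain sites, 113 bases before its start (4.90% of windows). TGANTCA, the loose form of the AP-1 motif, was there as TGAATCA, 95 bases before the start (6.87% of windows held TGANTCA). Neither of these was in the letters of Klk4's window. TGTGGT, a core of RUNX sites, was in neither window (14.2% of all windows) and CCAAT was in neither (34.5%). A match of letters is a description of the window and was not tested as a binding site.

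Library totals ran from 16574548 to 20262601 counts at P5 and from 17588152 to 22013456 at P12. At P5 the 20 most abundant genes of a library took 34.1% to 35.7% of its counts, against 16.8% to 19.0% at P12, so normalized values rest on the scaling of edgeR's trimmed mean of M-values (TMM). The 9 markers of enamel epithelium, among them Krt14, Cdh1 and Ambn, were all detected in every library. Transcripts of other cells were there as well, and no marker on the lists was at 0 in all libraries. The odontoblast gene Dspp stood at 136517 to 180180 normalized counts at P5 and 156051 to 182568 at P12 (log2 change 0.08, adjusted p = 0.64). Of the other odontoblast markers, Dmp1 fell by 0.42 on the log2 scale (adjusted p = 0.049) and Phex stood at 0.09 (adjusted p = 0.48). Odontoblasts are known to make MMP20 too, and their part in the values of Mmp20 was not tested. The 3 markers, of which Dspp gives most of the counts, summed to 148030 to 194852 at P5 and 169300 to 196703 at P12. The 2 osteoclast markers tested, Acp5 and Ctsk, both rose, with the list's sum at 1024 to 1661 and at 3110 to 7806. The remaining marker, Calcr, had too few counts to be tested and did not rise. It stood at 6.43 to 14.8 normalized counts at P5 and at 2.01 to 9.28 at P12. In bulk RNA, fewer cells of a type and less RNA per cell cannot be told apart. Library 5 at P5 and library 4 at P12 stood apart from the others of their age in genes described below, and the changes of the members, their ratio and the counts of called list genes are given with and without them.

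Mmp20 transcripts were abundant at P5 and lower in every P12 library. The P5 libraries 1, 3, 4 and 5 held 20366, 23256, 20083 and 23052 raw counts of the gene. P12 libraries 1 to 4 held 5121, 4517, 4843 and 5514. TMM scaling turned these into normalized counts of 26182, 25999, 26473 and 24399 for P5 and of 3755, 3811, 4488 and 5536 for P12. The ages did not overlap on either scale, and every P5 library lay above every P12 library. The P5 libraries lay close together, with a mean of 25763 ± 930 (SD, n = 4) and a coefficient of variation of 3.61%, whereas the P12 libraries gave 4397 ± 829 (n = 4) and a coefficient of variation of 18.9%. Mmp20 fell by 2.55 on the log2 scale (SE 0.12), which is 5.86-fold lower at P12, with an adjusted p of 3.0e-08 in edgeR's quasi-likelihood test. Decreases were common between the ages: of 16440 genes tested, 28.4% were called lower and 28.8% higher, 57.2% in all, and 2.40% of the tested genes fell further than Mmp20. With scaling to total counts the median log2 change of all genes was 0.38 in place of 0.01, 8885 genes were called higher and 2330 lower against 4735 and 4676 with TMM, and Mmp20 stood at -2.18. Without both P5 library 5 and P12 library 4 the log2 change of Mmp20 was -2.71.

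Klk4 moved the other way. Its raw counts were 2792, 2313, 2042 and 664 in the P5 libraries and 22891, 21040, 25273 and 31131 in the P12 libraries. Normalized, they came to 3589, 2586, 2692 and 703 for P5 and to 16783, 17753, 23419 and 31255 for P12. The ages did not overlap, and P5 library 5 lay far below the other libraries of its age. The means were 2392 ± 1213 (SD, n = 4) at P5 and 22303 ± 6647 (n = 4) at P12, with coefficients of variation of 50.7% and 29.8%, both above those of Mmp20. Klk4 rose by 3.22 on the log2 scale (SE 0.41), or 9.33-fold, with an adjusted p of 4.9e-05 in the same test. Without P5 library 5 the log2 change was 2.91, and without both P5 library 5 and P12 library 4 it was 2.71. With scaling to total counts it was 3.59. Of the genes tested, 1.45% rose more than Klk4.

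Non-overlap of the ages was itself frequent. All 4 P12 libraries lay above all 4 P5 libraries in 26.0% of the genes tested, and all lay below in 26.6%. An exact permutation test of each member's log2 normalized counts, two-sided over the 70 ways to divide 8 libraries into 4 and 4, gave 0.0286 for both genes, the smallest p the design allows. Libraries came from separate pools of pups, so these p-values measure the spread between pools and not between single animals.

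**Figure D1:**
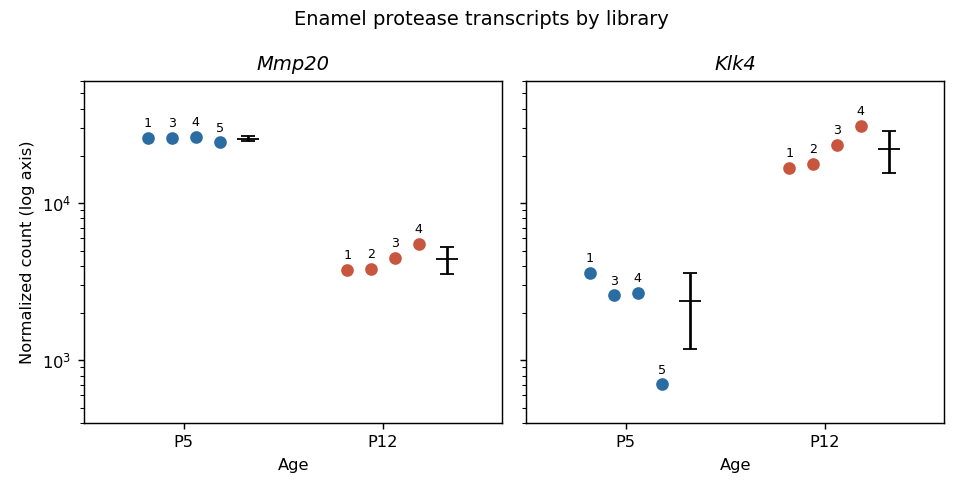
Normalized counts of Mmp20 and Klk4 in each library (log axis), P5 and P12 side by side, with 1 point per library and a black mark at the mean ± SD of each age. Mmp20 runs from 24399 to 26473 at P5 and from 3755 to 5536 at P12, and Klk4 from 703 to 3589 at P5 and from 16783 to 31255 at P12, with P5 library 5 the low point of Klk4.

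Between genes, levels were compared as normalized counts per kilobase of the length in the table. At P5 Mmp20 stood at 7838 ± 283 per kilobase (n = 4), rank 46 of the 14368 protein-coding genes tested, and Klk4 at 1915 ± 971, rank 252. At P12 Klk4 stood at 17856 ± 5322 (rank 23) and Mmp20 at 1338 ± 252 (rank 423). Klk4 was thus among the more abundant transcripts already at P5, although in P5 library 5 alone it ranked 1245. Between the ages the members exchanged their order on this scale. As shares of a library, Mmp20 took 0.114% to 0.121% of the counts at P5 and 0.0231% to 0.0314% at P12, while Klk4 took 0.0033% to 0.0165% and then 0.104% to 0.177%.

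The ratio of raw Klk4 counts to raw Mmp20 counts within a library was 0.137, 0.0995, 0.102 and 0.0288 in P5 libraries 1, 3, 4 and 5. Put the other way, there were 7.29, 10.1, 9.83 and 34.7 Mmp20 counts for each Klk4 count. In P12 libraries 1 to 4 the ratio was 4.47, 4.66, 5.22 and 5.65. Per kilobase the ratios came to 0.361, 0.262, 0.268 and 0.0759 for P5 and to 11.8, 12.3, 13.7 and 14.9 for P12, and on both scales Mmp20 led in every P5 library and Klk4 in every P12 library. The mean log2 ratio of raw counts went from -3.65 ± 1.0 (SD, n = 4) to 2.32 ± 0.15 (n = 4), a difference of 5.97, or 62.6-fold. The exact permutation test gave p = 0.0286 and 0.0333 after Benjamini-Hochberg adjustment over the 7 ratios compared here. Since Klk4 was higher and Mmp20 lower in every P12 library, this p follows from the single genes and adds no separate test. Without both P5 library 5 and P12 library 4 the difference was 5.42, where the smallest p that an exact test of 3 against 3 allows is 0.1. In normalized counts both genes were lowest at P12 in libraries 1 and 2 and highest in library 4, and the ratio lay within a narrow range. At P5 library 5 held the lowest ratio and the others lay close together.

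**Figure D2:**
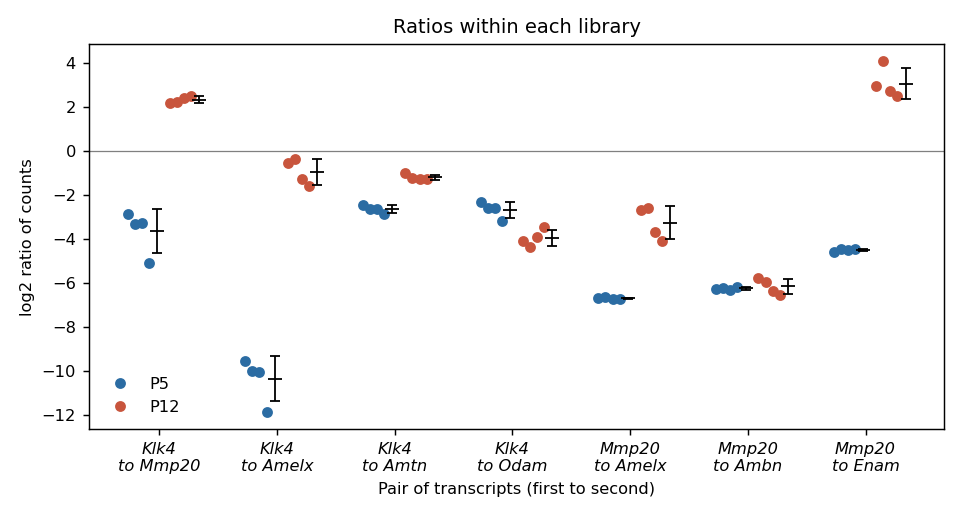
Log2 ratios of raw counts within a library for Klk4 to Mmp20 and for each protease to matrix or surface protein genes, with 1 point per library by age and the mean ± SD beside them. The Klk4 to Mmp20 ratio averages -3.65 at P5 and 2.32 at P12, whereas the Mmp20 to Ambn ratio overlaps between the ages.

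The matrix proteins that the enzymes cleave were set beside them. The substrate genes Amelx (amelogenin), Ambn (ameloblastin) and Enam (enamelin) were all called lower at P12, 3 of 3, against 28.4% of all genes tested. Their log2 changes were -5.74 (SE 0.49), -2.57 (SE 0.28) and -9.95 (SE 0.47). Mmp20's log2 change of -2.55 was close to that of Ambn and smaller than those of the other substrates. For every 1000 Ambn counts there were 12.5 to 13.7 Mmp20 counts at P5 and 10.7 to 18.0 at P12, overlapping ranges, with a log2 difference of 0.09 and an exact permutation p of 0.6. For every 1000 Amelx counts there were 9.31 to 9.88 Mmp20 counts at P5 and 57.3 to 165 at P12, and the mean ratio rose 10.8-fold. Against Enam the Mmp20 ratio rose 189-fold. Against Amelx the Klk4 ratio rose 677-fold. Each of the ratios to Amelx and Enam separated the ages in all 8 libraries (exact permutation p = 0.0286, adjusted 0.0333). For Klk4 to Amelx this had to be so, since Klk4 was higher and Amelx lower in every P12 library. The ratios other than Klk4 to Mmp20 were chosen after values were seen, so their p-values are a description.

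Klk4 was also set against Amtn (amelotin) and Odam, which encode proteins of the basal lamina between maturation ameloblasts and enamel. Both were called higher at P12, as were 28.8% of all genes tested. Amtn rose by 1.86 (SE 0.37, adjusted p = 0.0012) and Odam by 4.57 (SE 0.30) on the log2 scale. The log2 ratio of Klk4 to Amtn went from -2.66 ± 0.17 to -1.22 ± 0.12 (SD, n = 4 each), a 2.72-fold increase. That of Klk4 to Odam went from -2.70 ± 0.36 to -3.97 ± 0.38, which is 2.42-fold lower. Klk4 thus rose by more than Amtn and by less than Odam, and both ratios had an exact permutation p of 0.0286 (adjusted 0.0333). At P5 the Klk4 to Amtn ratio had a smaller SD than that of Klk4 to Mmp20. Amtn was low in library 5 as well, at 5149 normalized counts against 16356 to 19787 in the others.

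Among the matrix metalloproteinases, a family of zinc proteases, Mmp20 led at P5 and no longer at P12. Of the normalized counts of the 16 family genes tested, not corrected for length, it made up 67.1% at P5 and 13.7% at P12. Per kilobase it ranked first at P5, with Mmp14, a membrane-bound collagenase, next at 1430. At P12 the order of the means was Mmp14 (2141), Mmp13 (1503 ± 574), Mmp2 (1397 ± 510) and Mmp20 (1338 ± 252). The means of the last 3 did not differ beyond their spread, and their order was not the same in every library. From P12 library 1 to library 4, normalized counts of Mmp13 went from 5195 to 2309 and those of Mmp2 from 6871 to 3079. Those of Mmp20 went from 3755 to 5536. Of the 15 other family genes tested, 10 were called higher at P12, 3 lower and 2 neither, against 28.8% higher and 28.4% lower among all genes, with a median log2 change of 1.67 against 0.01 over all genes tested. The increases included Mmp13 (4.21, SE 0.29), a collagenase of bone and cartilage, Mmp9 (2.05), a gelatinase of osteoclasts and leukocytes, and Mmp12 (6.14), the macrophage elastase. The decreases were in Mmp24 (-2.77, SE 0.47, at most 76 counts in a library), a membrane-type metalloproteinase best known from the nervous system, in Mmp17 (-0.83, adjusted p = 0.019) and in Mmp8, the neutrophil collagenase (-0.39, adjusted p = 0.016). The summed normalized counts of the 15 other genes were 13012, 12446, 12515 and 12649 in the P5 libraries and 33478, 31709, 24746 and 21170 in P12 libraries 1 to 4, and 9 of the 15 were lowest at P12 in library 4. The osteoclast markers summed to 6234, 7806, 4886 and 3110 and the 3 macrophage markers to 1230.3, 1299, 1087 and 958 in the same P12 libraries. Of the macrophage markers, Cd68 rose by 1.53 and Csf1r by 0.44 between the ages and Adgre1 stood at 0.13 (adjusted p = 0.53), with the list's sum at 631 to 883 at P5. All 3 endothelial markers rose, from sums of 1922 to 2306 to sums of 3719 to 4031. The mesenchyme markers went the other way, with Pdgfra lower by 0.99 on the log2 scale (adjusted p = 1.1e-06) and Col1a2 by 0.36 (adjusted p = 0.033). The remaining one, Col1a1, stood at -0.34 (adjusted p = 0.056). Their sums were 869336 to 1053283 at P5 and 693126 to 882921 at P12. The part of any of these cells in the changes of the Mmp genes was not tested.

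With scaling to total counts, Mmp17 and Mmp8 no longer passed the threshold, at -0.46 and -0.012. Without P5 library 5 or P12 library 2 the adjusted p of Mmp17 was 0.065 or 0.056, and without P12 library 3 that of Mmp8 was 0.053.

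Mmp20 lies in a chromosome 9 cluster with 9 other metalloproteinase genes, of which 3 had enough counts to test. At P12, 2 were called higher and 1 lower, against 28.8% and 28.4% of all genes tested. Mmp7, 17111 bases away, had 0 counts in every library, and Mmp27, 46346 bases away on the other side, had 0 to 3 counts at P5 and 3 to 7 at P12. Further out on that side were Mmp8, 59746 bases away, with 126 to 189 counts at P5 and 142 to 218 at P12, and Mmp10, with 0 to 5 and 3 to 14. Beyond Mmp7, Tmem123, 89062 bases from Mmp20, had 969 to 1242 counts at P5 and 1605 to 2657 at P12. The floor for a gene with no counts, 3 counts in a library, was 0.136 to 0.181 CPM (counts scaled to a common library total) and covers counting error only.

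Among the kallikrein-related peptidases, a family of secreted serine proteases, Klk4 led at both ages. Of the normalized counts of the 9 family genes tested, not corrected for length, it held 84.3% at P5 and 94.6% at P12. The family has 36 other genes in the table, of which 21 had no count in any library and 8 were tested, with no count above 806 in a library. Of these 8, 7 were called higher at P12 (28.8% of all genes) and Klk8 was not (-0.68, adjusted p = 0.080), with a median log2 change of 2.46. They included Klk14 (6.01, SE 0.95), Klk12 (5.74), Klk13 (3.88), Klk11 (2.65) and Klk7 (2.28), peptidases best known from skin and stratified epithelia. In 3 of the 8 all P12 libraries lay above all P5 libraries, against 26.0% of all genes tested. The calls of Klk7, Klk9, Klk10 and Klk11 were lost with limma-voom, at adjusted p-values of 0.116, 0.104, 0.240 and 0.0640. That of Klk10 (adjusted p = 0.025) was also lost when any P5 library or P12 library 1 or 2 was left out, at 0.051 to 0.076. Klk8 was called lower without P12 library 2 or 4 (adjusted p = 0.031 and 0.028), with DESeq2 (0.048) and with no filter on low counts (0.031).

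The other Klk genes did not vary between P12 libraries as Klk4 did. Their summed normalized counts were 395, 442, 452 and 494 in the P5 libraries and 1637, 1934, 1275 and 208 in P12 libraries 1 to 4. All 8 were lowest at P12 in library 4, where Klk4 was highest. The oral epithelial keratins Krt13, Krt4 and Krt6b summed to 837, 746, 718 and 435 normalized counts in the P5 libraries and to 23178, 28833, 17980 and 2384 in P12 libraries 1 to 4. At P12 this is the order of libraries of the other Klk genes, and at P5 it is the reverse of theirs. The part of oral epithelium in the changes of the other Klk genes was not tested. Klk4 rose by at least 2.91 on the log2 scale in every fit that left out 1 library.

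On chromosome 7 the genes on either side of Klk4 had few counts. Klk5, 29979 bases away, had 0 to 3 counts at P5 and 1 to 32 at P12. Klk15, 47936 bases away on the other side, had 0 to 2 counts in any library. Neither adjacent gene had counts near those of Klk4 in any library.

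**Figure D3:**
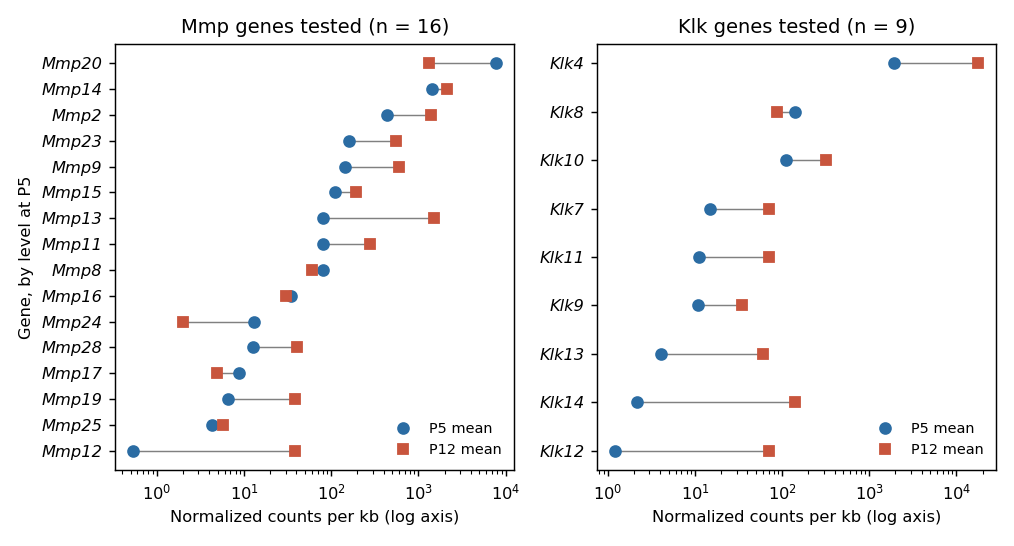
Normalized counts per kilobase of the tested genes of the Mmp and Klk families at each age (log axis), with 1 point for the mean of 4 libraries at each age and a grey line joining the ages of a gene. Mmp20 is the highest of its family at P5 and the fourth at P12, and Klk4 is the highest of its family at both ages.

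The proteases were also placed among other genes whose products may act on or beside them, which was not tested. Of 11 other proteases of enamel, bone and the processing of secreted precursors, all tested, 8 were called higher at P12, 1 lower and 2 neither, against the same 28.8% and 28.4% of all genes. Ctsc (cathepsin C, which activates granule serine proteases) rose from 318 ± 9.32 to 2633 ± 648 normalized counts (log2 change 3.05, SE 0.16, adjusted p = 5.9e-08). Ctsk, the collagen-degrading cathepsin of osteoclasts, rose from 828 ± 207 to 3533 ± 1210 (2.10, SE 0.25), beside the increase of the osteoclast markers tested, of which it is one. Plat (tissue plasminogen activator) rose by 1.78 and Plau (urokinase) by 0.81. The proprotein convertase genes were unequal, with Pcsk6 higher by 1.89 (SE 0.16), Furin by 0.38 (SE 0.08) and Pcsk5 at 0.10 (adjusted p = 0.38). Adam10, a sheddase, was the gene that fell, from 4888 ± 166 to 1938 ± 143 (-1.34, SE 0.07, adjusted p = 4.1e-08).

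Of 13 genes of protease inhibitors on the list 12 were tested. At P12, 9 were called higher, none lower and 3 neither, against 28.8% and 28.4% of all genes tested, with a median log2 change of 1.16. The metalloproteinase inhibitors Timp1, Timp2 and Timp3 rose by 1.37, 1.04 and 1.80 on the log2 scale, while Timp4 (-0.76, adjusted p = 0.26) and Reck (-0.06, adjusted p = 0.69) were not called. Without P12 library 4, Timp4 was called lower, at -1.52 (adjusted p = 0.017). Among inhibitors of serine proteases, Spint2 went from 3477 ± 231 to 7218 ± 476 (1.05, SE 0.07) and Spint1 from 1097 to 1390 (0.34, adjusted p = 0.0013). Spink5, an inhibitor of skin kallikreins, rose from a mean of 20.1 to 506 (4.68, SE 0.70), and stood at 67.3 in P12 library 4 against 489 to 817 in the others, low in the library where the oral keratins were low.

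The protease-activated receptors F2r (PAR1) and F2rl1 (PAR2), which are cleaved by serine proteases at the cell surface, differed. F2r went from 14494 ± 958 to 616 ± 45.7 normalized counts and fell by 4.56 on the log2 scale (SE 0.09, adjusted p = 5.6e-11). F2rl1 was at 0.09 (adjusted p = 0.62). The decrease of F2r was larger than that of Mmp20.

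Over all lists together, 89 genes without the 2 members, 53 were tested, of which 36 were called higher at P12 and 8 lower, against backgrounds of 28.8% and 28.4%. The groups of 4 did not overlap in 32 of the 53 upward and 7 downward, against 26.0% and 26.6%. Without both P5 library 5 and P12 library 4, 53 list genes were tested, of which 37 were called higher and 7 lower. Of all 16667 genes tested in that fit, 4921 were called higher and 4855 lower. The counts by list include only genes that the main analysis also tested, so they do not add up to these totals. Higher and lower, they were 8 and 1 for the other proteases and 9 and 0 of 11 tested for the inhibitors. For the Mmp family they were 10 and 2, and for the Klk family 7 and 0. The lists were chosen with earlier results of these data known, so these shares are a description.

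**Figure D4:**
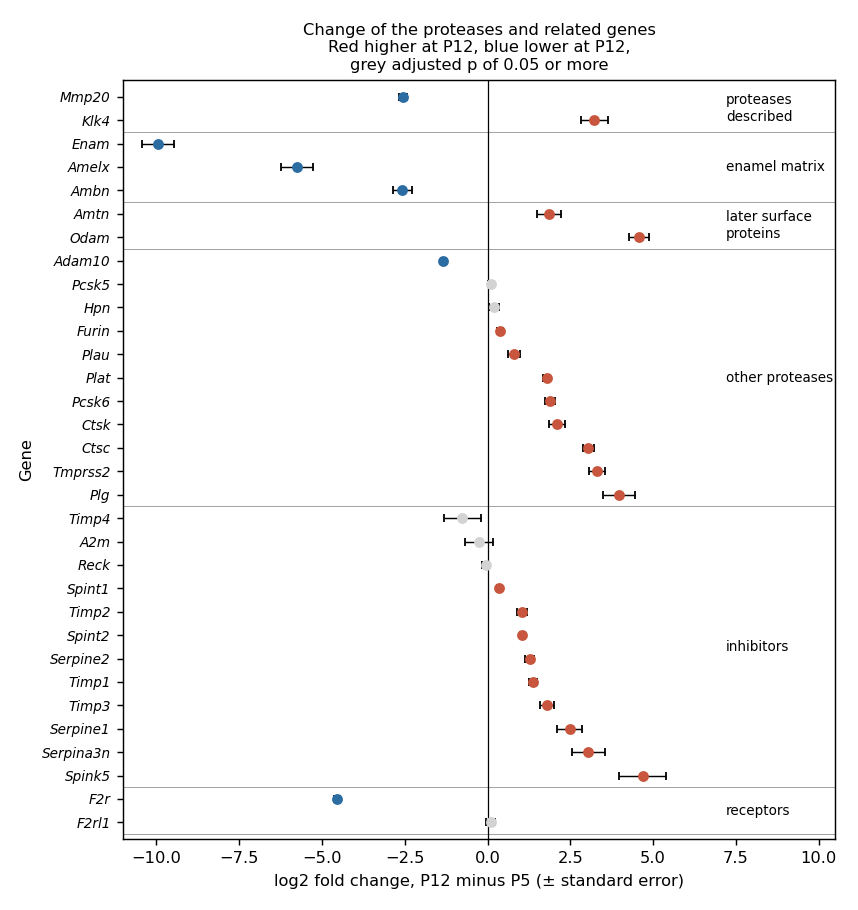
Log2 change from P5 to P12 of the proteases described and of the tested genes of the matrix, surface protein, protease, inhibitor and receptor lists, with bars of 1 SE, red for genes called higher, blue for lower and grey for neither. Klk4 lies at 3.22 and Mmp20 at -2.55, with the 3 substrate genes below 0 and the 2 surface protein genes above it.

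The genes most like each member across all 8 libraries were found by Pearson's r of log2(normalized count + 1), over 11057 protein-coding genes with a mean of at least 100. Such an r mostly reflects the difference between the ages, and 2134 genes exceeded 0.9 with Mmp20 and 1311 with Klk4. For Mmp20 the first were Msi2 (0.9993), Slc24a3 (0.9989), Satb1 (0.9985), Ggt5 (0.9985) and Dip2a (0.9983), with Enam at rank 27, Amelx at 47 and Ambn at 265. For Klk4 they were Slc24a4 (0.9988), which encodes a potassium-dependent sodium/calcium exchanger of maturation ameloblasts and is itself a gene of amelogenesis imperfecta, Ctsf (0.995), Mrpl32 (0.995), Camsap2 (0.994) and Pls3 (0.993). Amtn was at rank 56 and Odam at rank 86. Between the members themselves r was -0.89.

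With the mean of each age removed, so that only the differences between libraries of 1 age remained, other genes led. For Mmp20 these were Satb1 (0.995), Idh3a (0.995), Cltc (0.994), Ap2a2 (0.994) and Atp5a1 (0.991), and Ambn reached 0.983. For Klk4 they were Cdc42ep3 (0.997), Slc24a4 (0.9945), Usp6nl (0.994), Arhgef10l (0.993) and Slc15a1 (0.989), with Amtn at rank 10 (0.986). On this measure 513 genes exceeded 0.9 with Mmp20 and 163 with Klk4. The largest Klk4 deviation was -1.54, in P5 library 5, and the r values of Klk4 rest largely on that library. Those of Mmp20 rest largely on the P12 libraries. Its largest deviation was 0.35, in P12 library 4, against -0.078 as the largest in size at P5. Slc24a4 was, like Klk4, lowest in P5 library 5 and highest in P12 library 4, with 2269, 1787, 1581 and 332 normalized counts at P5, in the order of the library numbers, and 12520, 13015, 16758 and 23172 at P12. Satb1, a chromatin organizer, had the same order of libraries as Mmp20, at 10903, 10795, 11372 and 10167 and then 1558, 1589, 1926 and 2686. Klk4 and Mmp20 had r = 0.53 on this measure. These correlations are over 8 libraries, in each of which all genes share a depth and a tissue composition, and they are a description.

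Klk4 was not alone in being low in P5 library 5. There Klk4 had a deviation of -1.54 from its P5 mean on the log2 scale, and Slc24a4, Amtn and Odam were lowest in it too, while that of Mmp20 was -0.078. At P12 the deviations of Mmp20 were -0.21, -0.19, 0.05 and 0.35 and those of Klk4 were -0.36, -0.28, 0.12 and 0.53 in libraries 1 to 4, so both members were highest in library 4, together with Ambn and Amtn. The oral keratins and the other Klk genes were lowest there. What these libraries differed in when collected was not tested.

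**Figure D5:**
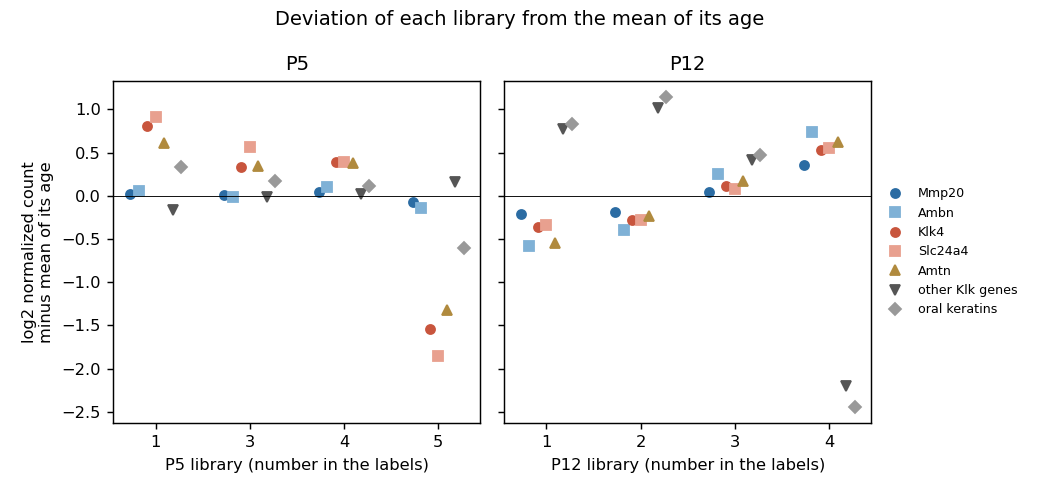
Log2 normalized count of each library minus the mean of its age, for Mmp20, Ambn, Klk4, Slc24a4, Amtn, the sum of the other Klk genes and the sum of the oral keratins. At P5 Klk4 falls to -1.54 in library 5, and at P12 Mmp20 and Klk4 reach 0.35 and 0.53 in library 4, where the other Klk genes and the oral keratins are lowest.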

How the data were processed

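Messenger RNA of enamel organs was captured by its polyA tail and sequenced. The authors deposited 1 table, which gives read counts as whole numbers with no normalization. Its aligner, counting tool and strand setting are not given in the sources used here. The submitters' processing notes name mm39, but the coordinates of 53585 of 54532 genes matched GENCODE M21 on GRCm38. No column of another series was found.

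Groups came from the sample labels. Counts were filtered with filterByExpr, scaled with TMM and tested with edgeR's quasi-likelihood test (edgeR 4.0.16, R 4.3.3), with Benjamini-Hochberg adjustment over 16440 genes and a threshold of 0.05. Normalized counts are raw counts scaled to the mean effective library size of 1.90063e+07. The SE of a log2 change is its size divided by the square root of F. Ratios used raw counts and exact permutation tests. The testing script was checked on simulated data. Alternatives were DESeq2 1.42.0, limma-voom (limma 3.58.1), other scalings, no filter, libraries left out and a replicate block. Named genes were the members, the listed genes (of the families, the 3 most abundant and the 3 with the largest change) and the 5 genes most like each member. Mmp8, Mmp9, Mmp17, Klk7, Klk8, Klk9, Klk10 and Klk11 were chosen after their values were seen, and neighbouring genes by position.

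The members and lists were chosen with earlier results of these data known. The ratios other than Klk4 to Mmp20 and the promoter motifs were chosen after values were seen. Promoters came from RefSeq (GRCm38.p6).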

Additional observations from a re-analysis of the deposited data

Results flagged for a closer look

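Each listed gene and ratio was examined in each age for a library far from the other 3 (Dixon's criterion). Of 124 groups of 4 libraries examined, 6 held such a library, and chance gives about 1 in 20. The log2 ratio of Klk4 to Amtn was -1.03 in P12 library 1, against -1.30 to -1.26 in the others. Of the metalloproteinase genes, Mmp2 stood at 1566 normalized counts in P5 library 1 (others 1447 to 1460) and Mmp8 at 166 in P5 library 4 (others 200.05 to 207). The protease inhibitor gene A2m stood at 26.4 in P5 library 4 (others 7.71 to 10.1). In P12 library 4, Timp4 stood at 17.1 (others 3.67 to 4.63) and Tmprss2 at 65.3 (others 89.4 to 93.7). The low Klk4 value of P5 library 5 did not meet the criterion.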

How the results depend on the processing

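Over 18 alternatives the log2 change of Mmp20 ranged from -2.71 to -2.18 and that of Klk4 from 2.71 to 3.59, all past the threshold (largest adjusted p 2.8e-06 and 4.1e-04). The log2 ratio of Klk4 to Mmp20 differed by 5.42 to 6.23 between the ages, and with 3 libraries an age the smallest p possible is 0.1. Scaling to total counts gave 8885 genes higher and 2330 lower. Leaving out 1 library gave 4309 to 4938 higher and 4364 to 5092 lower. The genes that changed sign were not called with either sign in the main analysis: with total counts A2m stood at 0.11, Mmp16 at 0.20 and Reck at 0.32, with the replicate block F2rl1 at -0.0012, and without both P5 library 5 and P12 library 4 Reck at 0.00064. Leaving out 1 library in turn, A2m ranged from -0.44 to 0.29 and Reck from -0.18 to 0.0088. For the 3 replicate numbers shared by the ages, the r of deviations was -0.036 to 0.045, against -0.068 to 0.062 for the other pairs of libraries. So few pairs cannot show whether the samples were paired. A replicate block over the 6 libraries with shared numbers gave Mmp20 -2.53 and Klk4 2.98, with 3867 genes higher and 3843 lower, against 4076 and 4041 without it. Among the single listed genes, 899 of the alternative values kept the call and direction, 25 lost the call (of Klk7, Klk9, Klk10, Klk11, Mmp8 or Mmp17), 9 gained one and 8 changed sign. Those gained were of Klk8 in 5 alternatives, of F2rl1, Hpn and Pcsk5 with total counts and of Timp4 without P12 library 4. With the replicate block the calls of Klk7, Klk9, Klk10, Mmp8 and Mmp17 were lost (adjusted p 0.082, 0.054, 0.20, 0.066 and 0.22) and Klk8 was called (0.045). In the same 6 libraries without the block, those of Klk7, Klk9, Klk10 and Mmp17 were lost too (adjusted p 0.062, 0.051, 0.12 and 0.14). There Klk8 was not called (0.073).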
